A study of Mus musculus with 39 samples.

Results

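The mitochondrial genome of the mouse was represented by 37 rows among the 55487 genes of the deposited table, chosen as every row whose symbol starts with mt-. They are 13 protein genes, 2 ribosomal RNA (rRNA) genes and 22 transfer RNA (tRNA) genes, and all 37 matched the GENCODE M21 annotation of GRCm38 (mm10). Single wild-type mouse embryos were sequenced, either left whole or taken apart into their blastomeres, the cells that cleavage of the egg produces, with a library for each blastomere. The 39 libraries came from 19 embryos: 5 separated 4-cell embryos, 4 intact 4-cell embryos, 5 separated 2-cell embryos and 5 intact 2-cell embryos. Separated 4-cell embryos 6 and 7 formed batch 2 and all other embryos batch 1, so batch and the other properties of those 2 embryos cannot be told apart. No transgene or drug was given in the labels, and separation itself was the treatment. Nothing in the labels says whether embryos had different mothers, so p-values measure the spread between these embryos. Blastomere counts of an embryo were summed, and the embryo was the replicate in every comparison of groups.

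The mitochondrial genome is a small circle read from both strands into long transcripts that run through many genes. Transfer RNA genes lie between the others, and their excision releases the messenger and ribosomal RNAs, while most messages and rRNAs then receive a short poly(A) tail. Its protein genes encode subunits of complex I (mt-Nd1 to mt-Nd6 and mt-Nd4l), complex III (mt-Cytb), complex IV (mt-Co1 to mt-Co3) and the ATP synthase (mt-Atp6 and mt-Atp8), while mt-Rnr1 and mt-Rnr2 encode the rRNAs of the mitochondrial ribosome. The annotation places mt-Nd6 and 8 of the tRNA genes on the minus strand, and these are usually called light-strand genes. The early mouse embryo carries mitochondria inherited from the egg, and divides without growing. The libraries were made by Smart-seq2, in which oligo-dT primes the copying of poly(A) RNA, so values compare a gene between embryos better than they compare classes of RNA with each other. All values below are relative to the other RNA of the library. A change in the amount of mitochondria, in transcripts per mitochondrion or in nuclear RNA cannot be told apart in such shares. Members share long transcripts and embryos, so members that move in the same direction are not independent results.

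Together the 37 genes took 16.8% of all counts. Library totals ran from 2019187 to 31576272 counts in separated 4-cell embryos, from 2738253 to 4194087 in intact 4-cell embryos, from 5930835 to 44048062 in separated 2-cell embryos and from 7157823 to 9889934 in intact 2-cell embryos. Marker genes of the 2-cell embryo, which are transcribed in a burst at that stage, summed to 1.43 to 93.1 CPM (counts scaled to a common library total) in libraries of separated 4-cell embryos and 10.6 to 68.4 CPM in intact 4-cell embryos, against 1187 to 3640 CPM in all 2-cell libraries. Markers of sperm, blood and oviduct summed to at most 29.8, 86.8 and 135 CPM in any library. Granulosa cell markers reached at most 106 CPM, in batch 2, with Inha, Ptgs2, Ereg, Nr5a1 and Vcan at 0 in every library. Foxl2, Fshr and Cyp19a1 were at 0 in all groups but batch 2.

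The first feature of these rows was the place of each gene relative to a nuclear copy. Between mt-Co1 and mt-Nd4, a stretch of 4653 bases of the mitochondrial genome (chrM:6390-11042) is matched on chromosome 1 (chr1:24611535-24616197, minus strand) by 7 annotated unprocessed pseudogenes. Only annotated transcripts were searched, so bases between the pseudogenes were not compared. An aligned copy covered 21.1% of mt-Atp8 and 0% of the 5 tRNA genes inside the stretch. The 6 protein genes that lie inside it had between 12 and 703 counts each over all 39 libraries. The 5 protein genes outside it had 352409 to 22154133 counts each. Both that lie partly inside, mt-Co1 and mt-Nd4, had 2195617 and 3090020 counts. Within the stretch, mt-Atp6 had 703 counts, mt-Co2 281, mt-Nd3 176, mt-Co3 169, mt-Atp8 134 and mt-Nd4l 12. The 7 pseudogenes together had 3010 counts, of which Gm10925 had 1899 and Gm28661 had 582, fewer in sum than any protein gene outside the stretch had alone. The sequences below show how little separates a gene from its copy. For mt-Nd4l the aligned 294 bases were the same in both genomes, and are printed once. For mt-Nd3 and Gm28438, 1 base differed over 345 aligned bases, T3C counted from the start of the stretch shown, which is in capitals in both lines.
mt-Nd4l, chrM:9877-10170, plus strand, and Gm10222, chr1:24612407-24612700, minus strand: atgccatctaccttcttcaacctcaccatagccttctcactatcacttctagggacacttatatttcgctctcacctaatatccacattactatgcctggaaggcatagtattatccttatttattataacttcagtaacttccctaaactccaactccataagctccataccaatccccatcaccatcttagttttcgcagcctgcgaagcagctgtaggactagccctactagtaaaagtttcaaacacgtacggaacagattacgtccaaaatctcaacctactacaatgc
mt-Nd3, chrM:9459-9518, plus strand: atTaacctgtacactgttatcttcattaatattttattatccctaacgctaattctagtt
Gm28438, chr1:24613060-24613119, minus strand: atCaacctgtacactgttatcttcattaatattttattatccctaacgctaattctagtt
How the counting treated reads that match both places is not given in the sources used here, and its part in these low counts was not tested. Levels of mt-Co2, mt-Co3, mt-Atp6, mt-Atp8, mt-Nd3, mt-Nd4l and the tRNA genes of the stretch are therefore uncertain, and mt-Co1 and mt-Nd4 may be understated. No message of complex IV other than mt-Co1, and none of the ATP synthase, could be followed. The protein class below rests on 7 genes, since the others carried almost none of its counts.

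**Figure D1:**
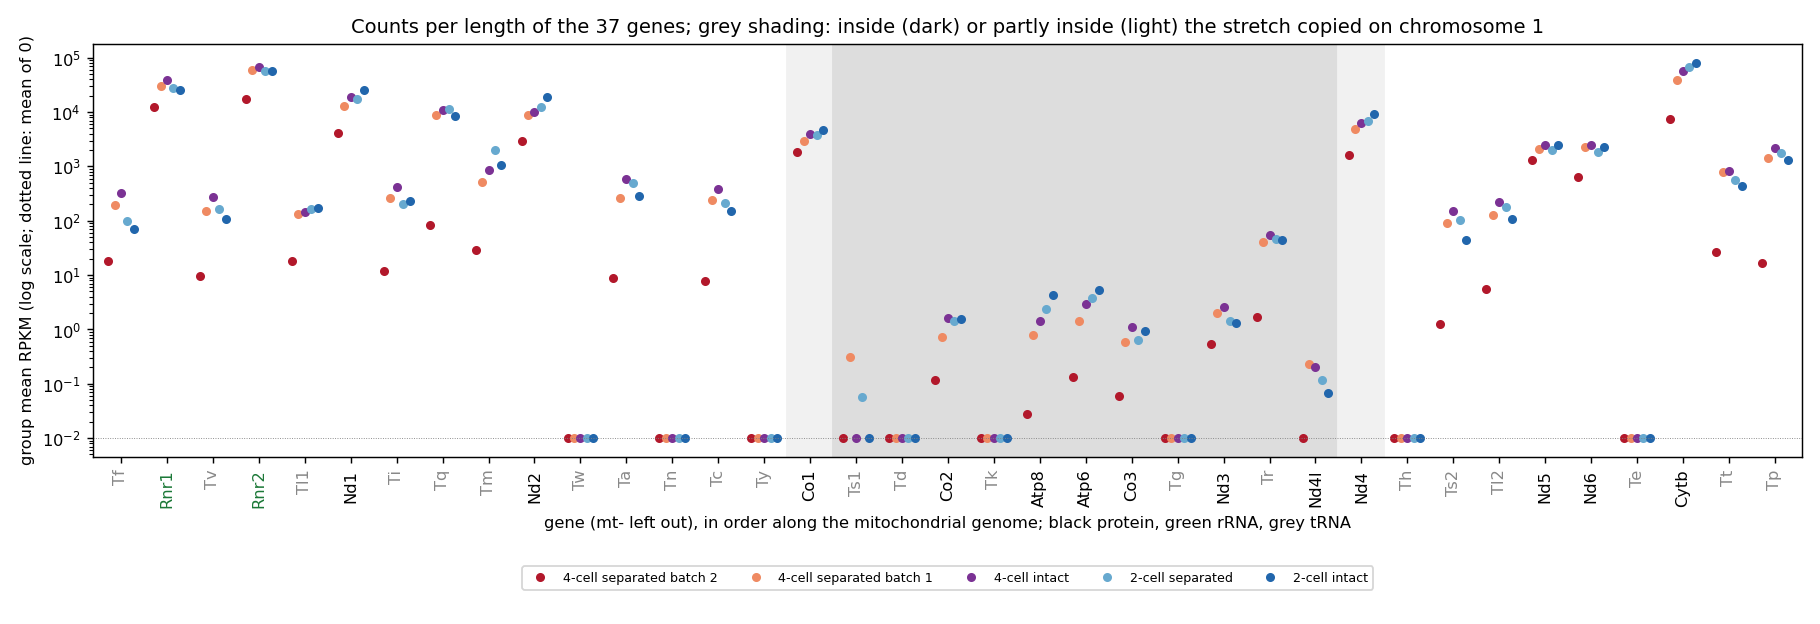
Group means of RPKM values, counts scaled to gene length and library total (log axis), for the 37 genes, in their order along the mitochondrial genome; grey marks genes inside, or partly inside, the stretch copied on chromosome 1, and points on the dotted line stand for a mean of 0. In every group the protein genes inside the stretch lie far below those outside it, and mt-Cytb is the highest protein gene.

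The tRNA genes were uneven in a different way. Their 22 rows held few counts, and mt-Tq, the glutamine tRNA, alone took 66.9% of them (204135 counts). It was followed by mt-Tp for proline with 10.1%, mt-Tm for methionine with 8.99%, mt-Tt for threonine with 3.67% and mt-Ta for alanine with 8230 counts. The 8 light-strand tRNA genes together took 81.0%. A count of 0 was listed for 8 tRNA genes (mt-Tw, mt-Tn, mt-Ty, mt-Td, mt-Tk, mt-Tg, mt-Th and mt-Te), where a floor of 3 counts over all libraries equals 0.00631 CPM. Length did not separate them, since they were 65 to 71 bases long and the 14 with a count 59 to 75. The neighbours mt-Tq and mt-Tm and the light-strand mt-Tp are shown because most tRNA counts and the tRNA results below rest on them.
mt-Tq, chrM:3772-3842, minus strand: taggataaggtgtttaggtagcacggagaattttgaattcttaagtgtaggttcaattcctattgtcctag
mt-Tm, chrM:3845-3913, plus strand: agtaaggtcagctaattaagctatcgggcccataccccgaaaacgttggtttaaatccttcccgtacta
mt-Tp, chrM:15356-15422, minus strand: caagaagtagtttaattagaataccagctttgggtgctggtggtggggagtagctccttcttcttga
Smart-seq2 does not mark strand, so a read over mt-Tq may come from the tRNA, from a longer light-strand transcript, or from a transcript of the other strand that joins mt-Nd1 to mt-Nd2. The same holds for mt-Nd6, whose end overlaps mt-Nd5 by 14 bases on the other strand. Counts in tRNA rows are thus reads at the gene and cannot be equated with mature tRNA.

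Per length, the same genes led in every group. In intact 2-cell embryos mt-Cytb stood at 80989 ± 15516 RPKM, counts scaled to gene length and library total (SD, n = 5), mt-Rnr2 at 57290 ± 9227, mt-Rnr1 at 25842 ± 4396 and mt-Nd1 at 25417 ± 3628, and the last pair did not differ beyond their spread. mt-Nd2 followed at 18987 ± 2006 RPKM, mt-Nd4 at 9256 ± 1588 and mt-Co1 at 4703 ± 812. mt-Nd5 at 2530 ± 379 and mt-Nd6 at 2263 ± 139 RPKM closed the order, again within their spread. In intact 4-cell embryos mt-Rnr2, at 67234 ± 14899 RPKM (SD, n = 4), stood above mt-Cytb at 57348 ± 17789, with overlapping values. In batch 1 of separated 4-cell embryos the same pair stood at 59428 ± 5201 and 38505 ± 2851 RPKM (SD, n = 3), and there their ranges did not overlap. mt-Cytb carried most of the protein class in each batch 1 group, with 54.1% of its counts in separated 4-cell embryos, 56.6% in intact 4-cell embryos, 61.1% in separated 2-cell embryos and 56.7% in intact 2-cell embryos. Batch 2 differed, with 36.7% in mt-Cytb.

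By class, the protein genes took 8.17 ± 0.76% of counts in separated 4-cell embryos of batch 1 (SD, n = 3), 11.5 ± 3.06% in intact 4-cell embryos (n = 4), 12.8 ± 2.99% in separated 2-cell embryos (n = 5) and 16.3 ± 2.30% in intact 2-cell embryos (n = 5). The rRNA genes took 12.3 ± 1.02%, 14.3 ± 3.36%, 11.5 ± 2.05% and 11.5 ± 1.83% in the same order. The tRNA rows took 0.0904 ± 0.052%, 0.121 ± 0.0246%, 0.123 ± 0.0314% and 0.0886 ± 0.0191%. Mean protein shares were thus lower in the 4-cell groups, with overlapping ranges in intact embryos, while mean rRNA shares were not. For a single library the 95% Wilson interval of a share reached at most 1.04% of the value for the protein class and 0.692% for the rRNAs, but up to 47.6% for the tRNAs, whose lowest count was 25. These intervals cover counting error only, since amplified reads without molecular identifiers are not independent molecules.

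Over intact and separated embryos together, the ratio of the classes showed the stage without overlap, which neither share did. In separated embryos alone the protein share did so too. It was 7.37 to 8.89% in 4-cell embryos of batch 1, against 10.3 to 18.0% in 2-cell embryos. Mitochondrial rRNA counts per protein count were 1.45, 1.52 and 1.56 in separated 4-cell embryos of batch 1 and 1.06, 1.17, 1.33 and 1.49 in intact 4-cell embryos. They were 0.834, 0.838, 0.881, 0.940 and 1.05 in separated 2-cell embryos and 0.679, 0.698, 0.698, 0.711 and 0.756 in intact 2-cell embryos. Every 4-cell embryo lay above every 2-cell embryo, and every separated 2-cell embryo above every intact 2-cell embryo, whereas at the 4-cell stage separated and intact embryos overlapped. The ratio is within a library, so it does not depend on how libraries were scaled to each other. It is a description with no test, since it pools genes of a class. Counts of mt-Nd6, the light-strand gene of complex I, moved likewise relative to the class. They stood at 14.7 per 1000 protein counts in separated 4-cell embryos of batch 1 and 11.3 in intact 4-cell embryos. In separated and intact 2-cell embryos they stood at 7.52 and 7.33. Without strand, the mt-Nd6 count includes any read from mt-Nd5 at their overlap. The shift was not particular to mt-Nd6. mt-Nd5 took 4.72% of protein counts in separated 4-cell embryos of batch 1 and 4.02% in intact 4-cell embryos. In separated and intact 2-cell embryos it took 2.90% and 2.84%. Mean shares of mt-Nd1 and mt-Co1 were also higher at the 4-cell stage, with overlapping ranges. Those of mt-Nd2 and mt-Nd4 were lower in intact and higher in separated embryos.

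**Figure D2:**
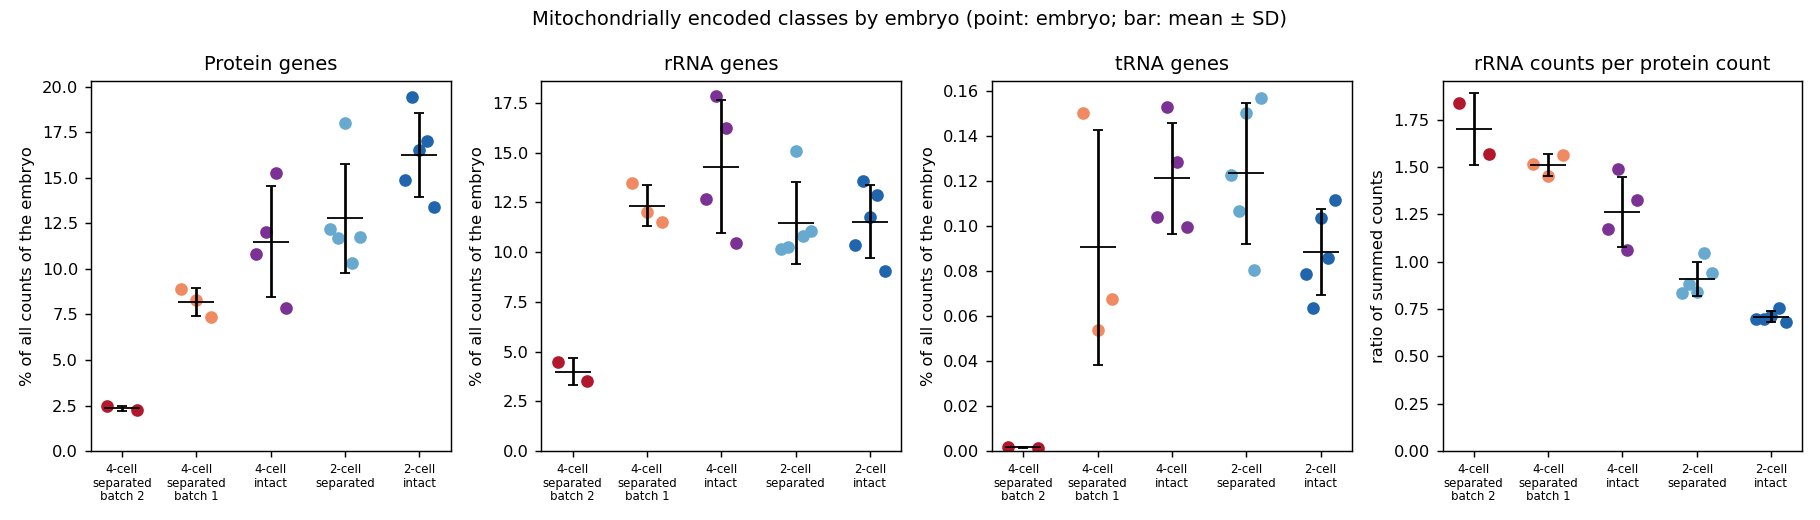
Percentage of an embryo's counts in the protein, rRNA and tRNA genes, and rRNA counts per protein count (last panel); points are embryos and bars the mean ± SD of a group. The protein share of intact 2-cell embryos lies between 13.4 and 19.4% and that of batch 2 between 2.23 and 2.45%, while rRNA counts per protein count lie at 0.679 to 0.756 in intact 2-cell embryos and at 1.06 or more in every 4-cell embryo.

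Stage was tested first in intact embryos, to ask what changes in the passage to 4 cells. Of 27 mitochondrial genes with enough counts for the test, mt-Nd2, a core subunit of complex I, fell in intact 4-cell against intact 2-cell embryos and no other gene passed, by edgeR's quasi-likelihood test at an adjusted p of 0.05. Over all 14119 genes tested, 10.4% passed in either direction and 4.99% fell. mt-Nd2 stood at 10126, 11908, 12643 and 7060 normalised CPM in intact 4-cell embryos, against 18719, 25520, 21974, 17181 and 17564 in intact 2-cell embryos. The groups did not overlap, and mt-Nd2 was the only member that lay wholly below intact 2-cell embryos, as did 7.1% of all genes tested. Its log2 fold change was −0.95 ± 0.19 (SE, adjusted p = 0.00287). The call was lost with limma voom (adjusted p = 0.930), with each blastomere as a library and embryo as a random effect (0.896) and without the batch term (0.101).

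The other messages of complexes I, III and IV did not pass, but some calls turned on the processing or on a single embryo. mt-Nd4 had a log2 fold change of −0.62 ± 0.20 (adjusted p = 0.0526) and mt-Cytb, the catalytic cytochrome b of complex III, of −0.55 ± 0.23 (0.119). mt-Nd1 had −0.47 ± 0.22 (0.165), mt-Co1, the catalytic subunit of complex IV, −0.29 ± 0.28 and mt-Nd5 −0.09 ± 0.21, while mt-Nd6 had 0.08 ± 0.21. mt-Nd4 passed under 18 of the 32 alternatives tried, among them those without intact 2-cell embryo 5, without separated 2-cell embryo 1, 2, 3 or 5, and without separated 4-cell embryo 3, 4, 6 or 7. Without intact 4-cell embryo 4, mt-Nd4 had −0.97 (adjusted p = 0.00457), mt-Cytb −0.90 (0.0217) and mt-Nd1 −0.77 (0.0465), and all 3 passed. The 7 protein genes outside or partly outside the copied stretch had a median of −0.47, with 6 below 0, beside a median of 0.00 over all genes. For the rRNAs the values were above 0, at 0.52 ± 0.21 for mt-Rnr1 of the small ribosomal subunit (adjusted p = 0.117) and 0.18 ± 0.18 for mt-Rnr2 of the large subunit (0.577). Among 13 tRNA genes tested none passed, 2 were below 0 and the median was 0.85. The ranges of 8 of those 13, mt-Ta, mt-Tc, mt-Tf, mt-Ti, mt-Tl2, mt-Ts2, mt-Tt and mt-Tv, lay wholly above those of intact 2-cell embryos, as did 9.87% of all genes tested. mt-Tf, the phenylalanine tRNA at the start of the heavy-strand transcript, had the highest value among them, 2.21 ± 0.84 (adjusted p = 0.0939).

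In separated embryos the stage comparison called 2 of 27 genes, mt-Cytb and mt-Tm, both lower in 4-cell embryos, where 11.1% of all genes passed and 4.7% fell. The 4-cell side of this comparison is the batch 1 level, because the fit has a term for batch. mt-Cytb stood at 49693, 47303 and 41386 normalised CPM in separated 4-cell embryos 2, 3 and 4, against 84676, 77253, 124131, 71849 and 65643 in separated 2-cell embryos. No value overlapped, as for 4 members and 8.74% of all genes lying wholly below here, and its log2 fold change was −0.88 ± 0.25 (adjusted p = 0.0324). The call was lost without separated 2-cell embryo 3 (adjusted p = 0.0688), separated 4-cell embryo 2 (0.0679), 3 (0.0690) or 4 (0.106), with both batch 2 embryos left out (0.0642), with limma voom (0.973) and with each blastomere as a library (0.177). mt-Tm had 43.1, 29.5 and 41.3 CPM in separated 4-cell embryos of batch 1, against 194, 76.5, 216, 67.7 and 183 CPM in separated 2-cell embryos. Its log2 fold change was −1.96 ± 0.47 (adjusted p = 0.0129), and the 2-cell values fell into a high set (embryos 1, 3 and 5) and a low set (embryos 2 and 4). This call was lost without separated 4-cell embryo 3 (adjusted p = 0.0523), with each blastomere as a library (0.222) and without a filter on low counts (0.0686).

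Side by side, the stage values of the 7 messages outside or partly outside the copied stretch had the same sign in intact and separated embryos. mt-Nd2 had −0.54 ± 0.20 in separated embryos (adjusted p = 0.0878), mt-Nd4 −0.55 ± 0.22 (0.108), mt-Nd1 −0.44 ± 0.24 and mt-Co1 −0.40 ± 0.31. Without the batch term, which lets batch 2 into the 4-cell level, mt-Nd2 had −1.06 (adjusted p = 0.0381) and mt-Nd4 −1.07 (0.0393), and both passed. Both also passed with a block for embryo number (0.0466 and 0.0465) and without a filter on low counts. mt-Nd2 passed without intact 4-cell embryo 5 (0.0480). The rRNAs had 0.13 ± 0.23 for mt-Rnr1 and 0.05 ± 0.20 for mt-Rnr2, and scaling by DESeq2's size factors or by nuclear counts alone took the lower of them below 0. Of the 13 tRNA genes 9 were below 0 in separated embryos, with a median of −0.22, and 2 in intact embryos. The test of that difference itself, the interaction of stage with separation, called 0 of 27 members and 0% of all genes. Its unadjusted p was under 0.05 for 2 of 27 members, beside 1228 of 14119 genes. Those members were mt-Tm at −1.61 ± 0.60 and mt-Ta at −1.91 ± 0.84, and DESeq2 called 2. All 13 tRNA genes had an interaction below 0, with a median of −1.14 beside −0.13 over all genes.

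**Figure D3:**
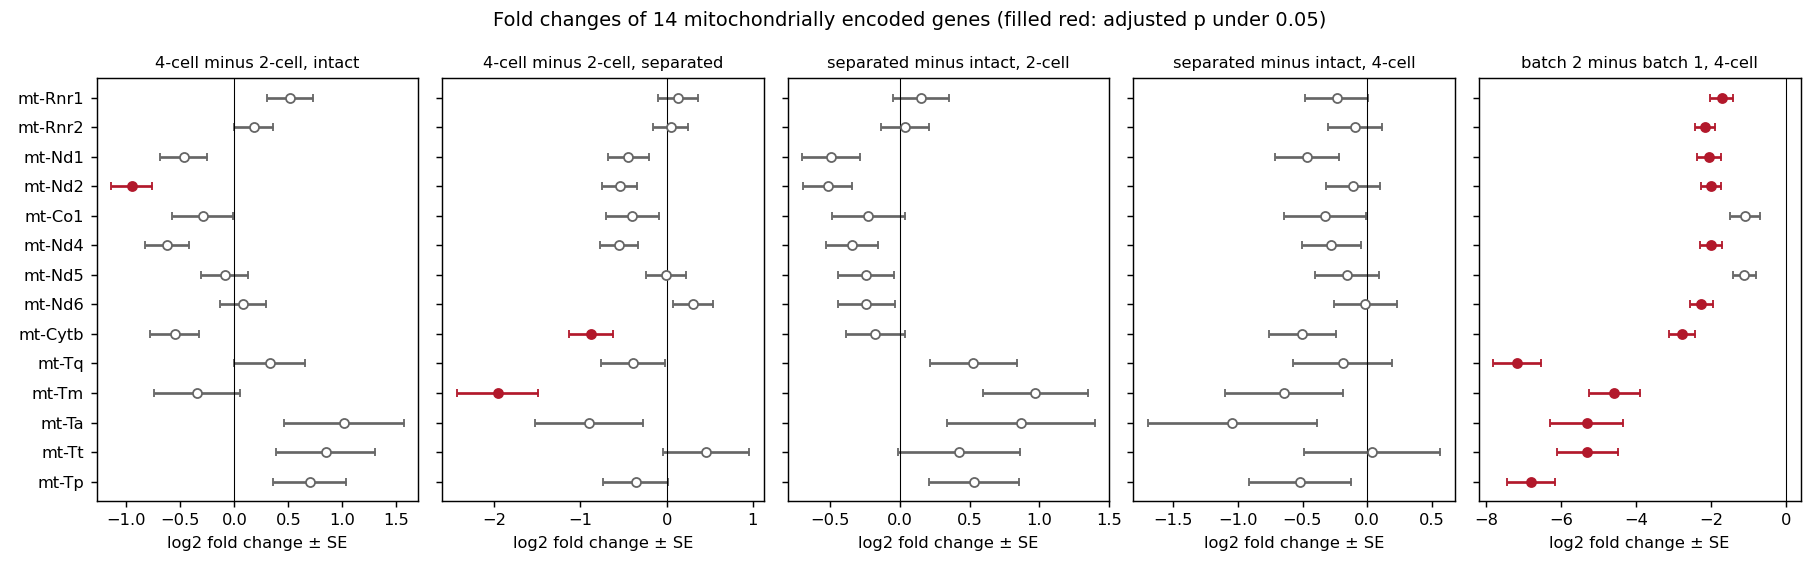
Log2 fold changes ± SE of 9 protein and rRNA genes and the 5 tRNA genes of highest count in 5 comparisons; filled red points have an adjusted p under 0.05. Calls are mt-Nd2 for stage in intact embryos, mt-Cytb and mt-Tm for stage in separated embryos, none for separation, and most of the genes shown for batch 2.

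Separation was compared at both stages, to ask whether taking embryos apart changed the mitochondrial RNAs. At the 2-cell stage no member passed, where 0.0142% of all genes did. Before adjustment 3 of 27 members had p under 0.05, beside 1481 of 14119 genes. They were mt-Nd2 at −0.52 ± 0.17, mt-Nd1 at −0.49 ± 0.20 and mt-Tm at 0.97 ± 0.38, with DESeq2 calling 1 member. mt-Nd2 stood at 12196, 13298, 19946, 11928 and 13095 normalised CPM in separated 2-cell embryos, against 18719, 25520, 21974, 17181 and 17564 in intact 2-cell embryos. Only separated embryo 3 lay within the range of the intact embryos. Of the 7 protein genes outside or partly outside the copied stretch, 7 had a value below 0, beside 5741 of 14119 genes. Their median was −0.24, beside 0.16 over all genes. For mt-Rnr1 the value was 0.15 ± 0.20 and for mt-Rnr2 0.04 ± 0.17, and with DESeq2's size factors both were below 0, as was 1 of them with library totals or nuclear scaling. Of 13 tRNA genes 12 were above 0, with a median of 0.57.

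At the 4-cell stage separation again called no member, with 0% of all genes called. Before adjustment no member had p under 0.05, beside 844 of 14119 genes, and DESeq2 also called 0. Of 27 members 26 had a value below 0, beside 6535 of 14119 genes. That count includes the rows of low count inside the copied stretch, and the members are not independent of each other. The 7 protein genes outside or partly outside the stretch were all below 0, with a median of −0.28. The medians were −0.16 for the rRNAs and −0.55 for the tRNA genes, beside 0.05 over all genes. mt-Cytb had 49693, 47303 and 41386 normalised CPM in separated 4-cell embryos of batch 1, against 59324, 72001, 92126 and 37556 in intact 4-cell embryos. The ranges overlapped through intact embryo 5, which had the lowest value, and the log2 fold change was −0.50 ± 0.26 (adjusted p = 0.801). For 3 tRNA genes, mt-Ta, mt-Tm and mt-Tv, the separated embryos lay wholly below the intact ones, as did 2.1% of all genes, and none passed the test. A separated embryo is a sum of several libraries, each made from the RNA of a single cell, so separation and input per library cannot be told apart.

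Batch 2 differed from batch 1 of the separated 4-cell embryos in more members than any other comparison called. In embryos 6 and 7 the protein genes took 2.34 ± 0.15% of counts, against 8.17 ± 0.76% in embryos 2, 3 and 4 of batch 1 (SD, n = 2 and 3). The rRNAs took 4.00 ± 0.70%, against 12.3 ± 1.02%, and the tRNA rows 0.00167%, against 0.0904 ± 0.052%. All 27 members were below 0 in batch 2, and 14 fell by edgeR's quasi-likelihood test, where 2.03% of all genes passed and 1.76% fell. The median over all genes was 0.13 on the log2 scale, and 0.38 with DESeq2's size factors.

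Among the messages, mt-Cytb had 6120 and 7415 normalised CPM in batch 2, against 49693, 47303 and 41386 in batch 1, a log2 fold change of −2.77 ± 0.35 (adjusted p = 8.57e-05). mt-Nd2 had 2685 and 2136 CPM, against 11154, 9066 and 8844, a change of −2.01 ± 0.27 (adjusted p = 0.000168). mt-Nd1, mt-Nd4 and mt-Nd6 also fell, with changes of −2.04 ± 0.32, −1.99 ± 0.29 and −2.25 ± 0.32. Not every message moved as far. mt-Co1 had 2578 and 1982 CPM in batch 2, against 7656, 3446 and 3516 in batch 1, a difference of −1.10 ± 0.39 that did not pass (adjusted p = 0.210), and mt-Nd5 had −1.11 ± 0.30 (0.0655). As a share of the protein class, mt-Nd5 took 9.99% in batch 2, against 4.72% in batch 1, and mt-Co1 12.3%, against 5.49%.

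Both rRNAs also fell in batch 2. mt-Rnr1 had 10583 and 8297 normalised CPM, against 37663, 25262 and 29861 in batch 1, a log2 fold change of −1.71 ± 0.31 (adjusted p = 0.00351). mt-Rnr2 had 24309 and 19945 CPM, against 116577, 94100 and 86014, a change of −2.16 ± 0.27 (adjusted p = 8.71e-05). The tRNA rows were lower by far more. mt-Tq had 4.31 and 5.07 CPM in batch 2, against 1299, 319 and 400 in batch 1, a change of −7.16 ± 0.64 (adjusted p = 2.56e-06). mt-Tp had 0.895 and 0.892 CPM, against 157, 68.9 and 76.9, a change of −6.81 ± 0.65 (adjusted p = 3.68e-06). The other tRNA genes that fell were mt-Tc, mt-Ta, mt-Tt, mt-Ti and mt-Tm, with changes between −5.37 and −4.58. Per 1000 protein counts the tRNA rows held 0.712 counts in batch 2, against 10.8 in batch 1 and 10.8 in intact 4-cell embryos. rRNA counts per protein count were 1.84 and 1.57 in batch 2, against 1.45 to 1.56 in batch 1.

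Other values moved with the batch. CT010467.1, a nuclear row annotated as an rRNA, took 11.0 and 7.57% of counts in embryos 6 and 7. Separated 4-cell embryos of batch 1 had 1.07% on average. Batch 2 embryos were also the most deeply sequenced 4-cell embryos, with 103179707 and 86817580 counts, against 13041687 to 15810965. Granulosa markers summed to 37.8 to 106 CPM in their libraries, against 0.21 to 51.7 CPM in separated 4-cell libraries of batch 1. They reached 46.7 CPM in intact 4-cell, 69.8 in separated 2-cell and 68.6 in intact 2-cell libraries, also of batch 1. Of the 18 markers listed, 9 had a count in batch 2, against 3 in separated 4-cell embryos of batch 1. The number was 5 in intact 4-cell, 4 in separated 2-cell and 6 in intact 2-cell embryos. The part of each in the batch difference was not tested. Without embryo 6 or without embryo 7, mt-Rnr1, mt-Nd1, mt-Ta, mt-Ti and mt-Tc no longer passed, and 9 members did, in a fit where batch 2 is a lone embryo assumed to vary like the other groups. The calls of mt-Ti and mt-Tc were also lost when any intact 4-cell embryo was left out, that of mt-Ti without separated embryo 4 and that of mt-Tc without separated embryo 2. With limma voom mt-Cytb (adjusted p = 0.868), mt-Nd2 (0.343), mt-Rnr1 (0.493) and mt-Rnr2 (0.826) did not pass. With each blastomere as a library mt-Nd1 (0.912), mt-Nd2 (0.575), mt-Nd4 (0.304), mt-Rnr1 (0.654) and mt-Tq (0.136) did not.

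**Figure D4:**
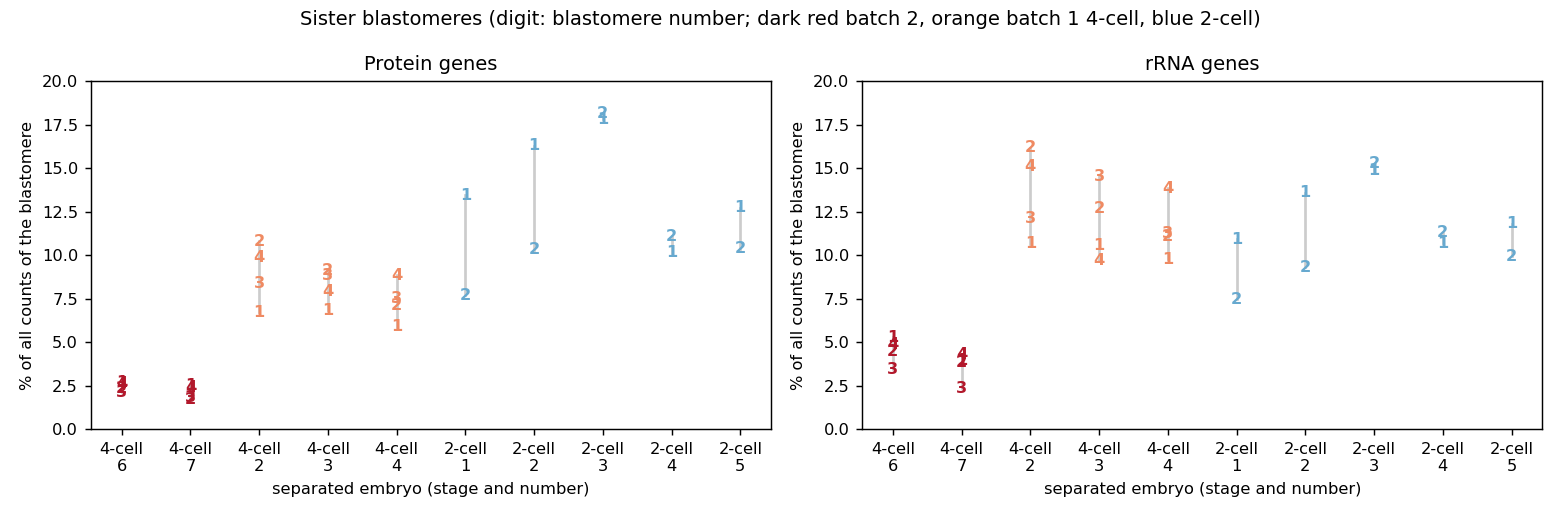
Percentage of counts in the protein genes and in the rRNA genes of each blastomere (digit) of the separated embryos, by embryo. All blastomeres of batch 2 lie below 3% for the protein genes, and 2-cell sisters range from nearly equal in embryo 3 (17.8 and 18.1%) to far apart in embryo 1 (13.4 and 7.69%).

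Sister blastomeres, the cells of a single embryo, were then compared. At the 2-cell stage the protein share of the higher sister was 1.02 to 1.75 times that of the lower, and the rRNA share 1.03 to 1.46 times. In 4-cell embryos the highest sister was 1.33 to 1.61 times the lowest for the protein share in batch 1 and 1.28 to 1.44 times in batch 2. For the rRNA share these ratios were 1.42 to 1.52 in batch 1 and 1.54 to 1.82 in batch 2. In several embryos most of the genes were higher in the same sister, and how other abundant genes split was not tested. Of the 9 protein and rRNA genes outside or partly outside the copied stretch, 9 were higher in blastomere 1 of 2-cell embryo 1. The count was 9 in embryo 2 and 8 in embryo 5. It was 2 and 1 in embryos 3 and 4, where most were higher in blastomere 2, though the sisters of embryo 3 were nearly equal in both shares. In embryo 1 the richer sister had the deeper library, with 33658695 against 9631457 counts, and in embryo 2 the shallower, with 11338976 against 38381714.

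Among 4-cell sisters, blastomere 1 was lowest for 8 of the 9 genes in embryo 2, blastomere 4 was highest and blastomere 1 lowest for 8 each in embryo 4, and blastomere 1 was highest for 8 and blastomere 3 lowest for 9 in embryo 6. In embryo 3 blastomere 3 was highest for 4 and blastomere 4 lowest for 5, and in embryo 7 blastomere 4 was highest for 5 and blastomere 3 lowest for 5. Blastomere numbers carry no identity across embryos in the labels. The spread between sisters, as the median SD on the log2 scale, was 0.34 for these protein genes at the 2-cell stage, 0.29 in batch 1 and 0.23 in batch 2. Over all genes with at least 1000 CPM it was 0.26, 0.26 and 0.24, and the difference between these sets was not tested. For the rRNAs it was 0.25, 0.25 and 0.36. The tRNA rows reached the widest ratio, 4.22, in 2-cell embryo 2, where they took 0.260% of counts in blastomere 1 and 0.0616% in blastomere 2. mt-Tm, the methionine tRNA gene called for stage in separated embryos, had 220 and 22.2 CPM in blastomeres 1 and 2 of embryo 2, and 39.8 and 138 CPM in those of embryo 4. It had 201 and 93.8 CPM in embryo 1, 176 and 214 CPM in embryo 3, and 195 and 185 CPM in embryo 5. In embryos 2 and 4 the low sister was also the deeper library, with 38381714 and 44048062 counts, and so weighed most in the summed embryo.

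Whether embryos differed beyond their sisters was tested with blastomeres as libraries. Among separated 2-cell embryos no member of 25 tested passed, where 0.0333% of all genes did, and 3 had an unadjusted p under 0.05 (mt-Rnr1, mt-Co1 and mt-Nd5). Among separated 4-cell embryos of batch 1, mt-Tq and mt-Co1 passed of 22 tested, where 0.152% of all genes did. mt-Co1 averaged 6686 ± 804 CPM over the 4 sisters of embryo 2, against 3484 ± 130 in embryo 3 and 3484 ± 599 in embryo 4 (adjusted p = 0.0293). The lowest sister of embryo 2, at 5672 CPM, lay above the highest of the other embryos, at 4081 CPM. mt-Tq averaged 1118 ± 329 CPM over the sisters of embryo 2, against 321 ± 47 in embryo 3 and 409 ± 89 in embryo 4 (adjusted p = 0.0147), and again no sister overlapped. The genes lie apart on the mitochondrial genome, with mt-Nd2 and several tRNA genes between them. With any of the 3 embryos left out, 0 members passed. Between the embryos of batch 2 no member of 19 tested passed, where 0.794% of all genes did, and 4 had an unadjusted p under 0.05, with DESeq2 calling 3.

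**Figure D5:**
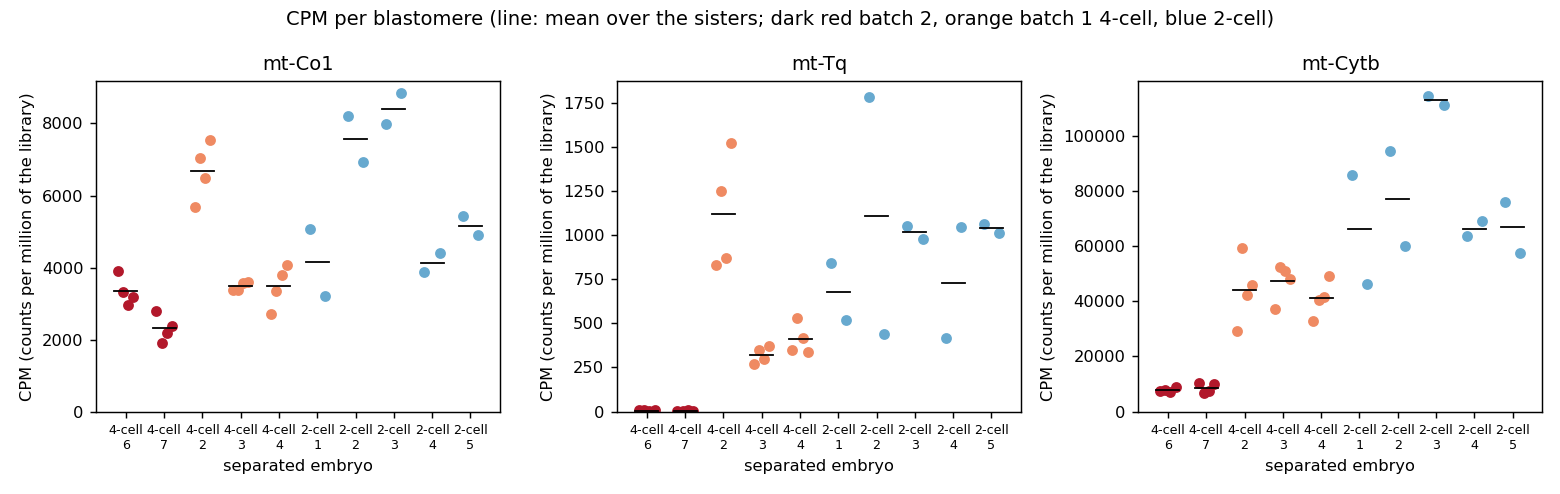
CPM of mt-Co1, mt-Tq and mt-Cytb in each blastomere of the separated embryos. For mt-Co1 the sisters of 4-cell embryo 2 lie between 5672 and 7544 CPM, above all sisters of embryos 3 and 4 (2705 to 4081 CPM), and for mt-Tq between 828 and 1520 CPM, above 270 to 531 CPM.

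The nuclear partners of these genes changed with stage in both directions. In complex I, 4 nuclear subunit genes rose and 2 fell of 36 in intact 4-cell embryos, and 5 rose and 1 fell in separated 4-cell embryos. In complex III, 2 and 3 of 9 rose. In complex IV, 2 rose and 3 fell of 11 in intact embryos and 3 rose in separated embryos. For the ATP synthase 6 of 13 rose in each. In complex II, which has no mitochondrially encoded subunit, 1 of 4 rose in intact embryos and none in separated embryos. Atp5k, a small ATP synthase subunit, stood at 466 ± 122 normalised CPM in intact 4-cell embryos, against 122 ± 46.2 in intact 2-cell embryos. Cox7c of complex IV stood at 473 ± 130, against 59.6 ± 29.2, while Cox7b of the same complex stood at 29.2 ± 7.46, against 247 ± 148. Ndufa2 of complex I stood at 233 ± 47.0, against 610 ± 183, and Uqcrb of complex III at 457 ± 81.2 in separated 4-cell embryos of batch 1, against 18.0 ± 12.1 in separated 2-cell embryos. All 5 passed the test. The share of these lists called is to be read against the 10.4% and 11.1% of all genes called in either direction in intact and separated embryos. Of all 14119 genes, 764 rose and 705 fell in intact embryos, and 904 rose and 664 fell in separated embryos.

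Genes that copy, process or stabilise mitochondrial RNA were listed apart. Of 14 genes for transcription of the mitochondrial genome 1 rose with stage in intact embryos (Tfam) and 1 in separated embryos (Esrra), as did 1 of 19 for its replication in each. Tfam stood at 33.8 ± 9.37 normalised CPM in intact 4-cell embryos, against 0.0458 ± 0.0636 in intact 2-cell embryos. Of 31 genes for processing and modifying mitochondrial RNA none passed in intact embryos, and 3 rose and 1 fell in separated embryos. Among these Grsf1, a protein of the mitochondrial RNA granules, rose to 130 ± 29.0 normalised CPM in separated 4-cell embryos of batch 1, against 40.8 ± 25.2 in separated 2-cell embryos. In the list of 14 genes for stability, polyadenylation and decay, 1 rose and 1 fell in each. Angel2 fell to 24.7 ± 18.5 CPM in intact 4-cell embryos, against 240 ± 76.9 in intact 2-cell embryos. Lrpprc rose to 30.3 ± 10.5 CPM, against 0.0987 ± 0.221, in the same groups, and did not pass in separated embryos. For stage these counts too are to be read against the 10.4% and 11.1% of all genes called. No gene of any of these 9 lists passed for separation at either stage. Over all genes 0.0142% passed for separation at the 2-cell stage and 0% at the 4-cell stage.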

How the data were processed

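Expected counts per gene, which need not be whole (12.6% of non-zero values were not, tolerance 1e-09), were deposited by the authors for 39 libraries. Per the submitters' processing notes, Trim Galore 0.6.10, STAR 2.7.3a, RSEM 1.2.28 and GRCm38 (mm10) were used. The annotation, the strand setting and the treatment of reads with several matches are not given in the sources used here, and each can change the counts of genes with near-identical copies, overlapping genes and short tRNA genes.

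Counts were rounded, and blastomeres summed per embryo. No pair of libraries was identical. edgeR 4.0.16 (TMM scaling, filterByExpr, quasi-likelihood F-test, terms for 4 groups and batch) was fitted to all genes, with Benjamini-Hochberg adjustment over the 14119 tested, and a gene was called at an adjusted p under 0.05. SE is the absolute log2 fold change divided by the square root of F. Normalised CPM use TMM-scaled totals, and RPKM use total counts and GENCODE M21 exon lengths. Differences between embryos were tested by an edgeR F-test of the embryo factor over blastomere libraries. Copies of mitochondrial genes were found with blastn 2.17.0 in the transcript sequences of GENCODE M21, from which printed sequences also come, at an identity of at least 99%.

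Of the 37 genes 27 were tested. The others were 8 tRNA genes without a count, mt-Ts1 with 2 counts and mt-Nd4l with 12. All 37 could be named. Full values were to be given for members called in any comparison, mt-Nd6, both rRNAs and the most and least abundant protein gene per length, and for the 5 tRNA genes of highest count. Of each nuclear list, up to 3 genes of smallest p could be named. Members and lists were chosen with earlier results of these data known. Embryos with the same number in different groups deviated from their group means with correlations between −0.055 and 0.025, none of 21 above 0.1. Those with other numbers had −0.106 to 0.111. No pairing by number was seen and the main fit had no term for it, though so few embryos could hide a weak pairing. Scripts were tested on simulated data, where the embryo-level fit made no false call and the test between 2-cell embryos called more unchanged genes than its rate allows. It called no member in the real data. Alternatives tried were other scalings, filters, DESeq2 1.42.0, limma 3.58.1 (voom), blastomeres as libraries with embryo as a random effect, thinned counts, the batch term or batch 2 left out, a replicate block, and each embryo left out in turn.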

Additional observations from a re-analysis of the deposited data

Results flagged for a closer look

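Group values were searched for a sample far from the others by Dixon's ratio in 72 sets of 4 to 5 embryos, and 8 were found. Chance flags about 1 in 20 such sets, and sets that share an embryo are not independent. In 6 of the 8 the value was the highest of the separated 2-cell group and belonged to embryo 3. Its protein share was 17.987%, with 10.3 to 12.2% in the other 4 embryos, and its rRNA share was 15.0657%, with 10.1 to 11.0%. In normalised CPM, mt-Rnr2 had 129461 in embryo 3, with 83609 to 92390 in the others, and mt-Nd2 had 19946.4, with 11928 to 13298. mt-Nd5 had 6018.58, with 3219 to 3989, and mt-Nd6 had 1247.1, with 944 to 993. Both of its blastomeres were high, at 17.8 and 18.1% for the protein share.

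The other 2 values were highest in a 4-cell group. mt-Co1 had 7655.53 normalised CPM in separated 4-cell embryo 2, with 1982 to 3516 in the other 4. mt-Ta had 63.9857 CPM in intact 4-cell embryo 3, with 31.5 to 32.4 in the other 3.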

How the results depend on the processing

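Numbers of members called changed with the processing as follows, beside 1 (stage in intact embryos), 2 (stage in separated embryos), 0 (separation at either stage and the interaction), 14 (batch), 0 (2-cell embryos), 2 (4-cell embryos of batch 1) and 0 (4-cell embryos of batch 2). For stage in intact embryos the count was 2 with DESeq2's size factors, nuclear scaling, a CPM filter, thinned counts, the replicate block or batch 2 left out, 3 with library totals, 5 without a filter, 6 with DESeq2, 0 with blastomeres as libraries and 0 without the batch term. For stage in separated embryos it was 5 without a filter, 4 with DESeq2 or without the batch term, 1 with blastomeres as libraries or batch 2 left out, and 3 with the replicate block. Separation at the 2-cell stage gave 2 without a filter, 1 with DESeq2 and 1 with blastomeres as libraries, separation at the 4-cell stage 1 without a filter, and the interaction 2 without a filter and 2 with DESeq2. The batch count was 23 with DESeq2, and 17 with limma voom, 17 with blastomeres as libraries and 13 without a filter, which each also ended calls of named genes (mt-Ti, mt-Ta and mt-Tc without a filter, the others as given with the batch). Between 2-cell embryos 8 were called without a filter, and between batch 2 embryos 1 without a filter, 3 with DESeq2 and 1 with thinned counts. With each embryo left out in turn the counts were 1 to 4 for stage in intact embryos, 0 to 3 for stage in separated embryos, 9 to 15 for batch and 0 to 0 for embryos of batch 1. No pairing by number was seen, and in the replicate block mt-Tm no longer passed for stage in separated embryos (adjusted p = 0.0874). mt-Tm for separation at the 2-cell stage changed sign, to −0.081 with blastomeres as libraries, beside 0.97, as did the rRNA values near 0 named with stage in separated embryos and with separation at the 2-cell stage under other scalings. For stage in intact embryos mt-Rnr1 passed with library totals (adjusted p = 0.0440), the replicate block (0.0232) and without a filter. The causes were not tested. Log2 ratios of mean class shares between groups, which include batch 2, stayed within 1 pooled SD of their values in every alternative. That SD was wide where batch 2 entered, at 0.66 for rRNA and 2.23 for tRNA shares for stage in separated embryos. The rRNA ratio for stage in separated embryos ran from −0.54 to 0.11, beside −0.35, and so changed sign. So did that for separation at the 2-cell stage, with −0.13 to 0.057 beside −0.0080. The interaction could not be fitted on fewer groups, nor the block for the batch. Depth limited the tRNA rows most, down to 25 counts in a library.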
